A study of Mus musculus with 6 samples.

Results

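The thioredoxin reductases and peroxiredoxins were followed in villi of newborn mice that lacked the channel kinase TRPM7 in the intestinal epithelium. The set held 10 genes, Txnrd1, Txnrd2, Txnrd3, Srxn1, Prdx1, Prdx2, Prdx3, Prdx4, Prdx5 and Txn2, taken by name from the platform's annotation, and 9 of them had a probe set carrying their symbol alone, out of 19938 such genes on the array. Prdx5 had none and has no value here. Where a gene had several such probe sets, the one brightest on average across the 6 arrays was used.

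Control pups were Trpm7 fl/fl and mutant pups were their Trpm7 fl/fl;Villin1-Cre littermates, called Trpm7-intestine KO, so both genotypes carried the floxed allele and only the mutants carried Cre. The Villin1 promoter drives Cre in the epithelium along the whole intestine, so cells outside the epithelium are not its target. Villi from the whole intestine were taken at P5 (5 days), and total RNA of 3 control and 3 mutant replicates was hybridised to 1 Affymetrix whole-transcript array each. The labels give the background as C57BL/6, whereas the study's methods give C57BL/6J for the Cre line and a different inbred strain for the floxed line. Mutant pups were already growth retarded at this age, and the labels give the sex of all samples as unknown.

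Before any result, 3 properties of the arrays bear on how the values read. Trpm7 itself had log2 signals of 9.11, 8.96 and 9.03 in controls and 8.03, 7.79 and 7.88 in mutants, a fall by 1.13 (limma, adjusted p = 1.898e-04), and the position of its probe set relative to the deleted stretch is unknown here. Xist, the transcript of the inactive X chromosome, was high on all control arrays (10.48, 9.82 and 9.66) and on mutant replicate 1 (10.18), against 4.76 and 5.26 on the other mutant arrays. The Y-linked Eif2s3y was at 3.63 on control replicate 1 and 3.56 on mutant replicate 1, and between 7.71 and 8.50 on the other 4 arrays. The replicates are described as littermates, 3 of each genotype, with no mention of pooling, whereas control replicates 2 and 3 held both kinds of transcript. For the set and the gene lists, counts of calls without these 2 control arrays are given, or the genes concerned named, where they differ by over 1.5 times. That setting leaves 1 control array. Control replicates 2 and 3 were also the closest pair within a group, with a median absolute difference of 0.09 against 0.11 to 0.13 for the others. Whether they are independent samples is unknown here. The limma p-values set the mean difference against the spread between replicates of a group, and 3 arrays a group limit the precision. Vil1, a defining enterocyte marker, was at 12.25 ± 0.03 in controls and 12.49 ± 0.15 in mutants (mean ± SD, n = 3), so this marker was present on all arrays.

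Thioredoxins are small proteins with a pair of cysteines that reduce disulphides in other proteins, and thioredoxin reductases, which are selenoproteins, recharge them with electrons from NADPH. Peroxiredoxins destroy hydrogen peroxide through a reactive cysteine and hand the resulting disulphide back to thioredoxin, while sulfiredoxin rescues peroxiredoxins whose cysteine has been oxidised too far. The system exists in parallel in the cytosol (Txnrd1, thioredoxin 1, Prdx1, Prdx2) and in mitochondria (Txnrd2, Txn2, Prdx3), and several of its cytosolic genes are known targets of the stress factor NRF2.

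The cytosolic and the mitochondrial reductase moved in opposite directions. Txnrd1 rose 2.21-fold and Srxn1 rose 2.20-fold in Trpm7-intestine KO villi, Prdx1 rose 1.56-fold and Txnrd3 rose 1.29-fold, while Txnrd2 fell, its signal in controls being 1.6 times that in mutants. Of the 9 measured genes, 4 were called higher and 1 lower at an adjusted p of 0.05 or less in limma, and 2 of the 4 reached 2-fold. Among all genes with a symbol of their own, 9.39% were called higher, 10.1% lower and 1.70% higher by at least 2-fold. The median change of the 9 genes was 0.13 on the log2 scale, against 0.01 over all genes. The control and mutant arrays did not overlap for 5 of the 9, where 37.5% of all genes showed no overlap. Txn2, Prdx2, Prdx3 and Prdx4 were not called, with adjusted p from 0.32 to 0.66 (limma). In bulk villi, fewer cells of a type and less RNA per cell cannot be told apart.

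**Figure D1:**
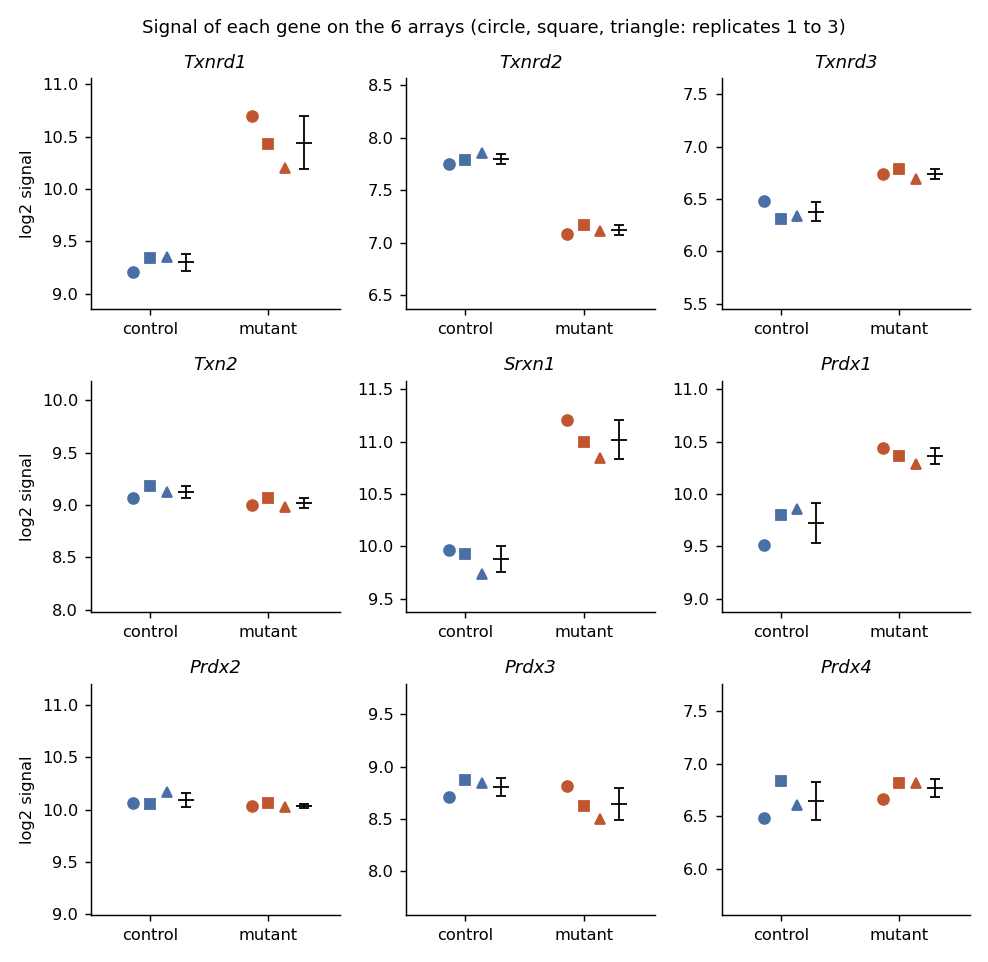
Log2 signal (vertical axis, a separate range in each panel) of the 9 measured genes on the 3 control (blue) and 3 mutant (red) arrays; symbols mark replicates 1 to 3, and bars give the mean ± SD. Txnrd1, Srxn1, Prdx1 and Txnrd3 lay higher on all 3 mutant arrays and Txnrd2 lower, and the other 4 overlapped or touched.

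Txnrd1, the cytosolic reductase, gave log2 signals of 9.21, 9.34 and 9.35 in controls and 10.70, 10.43 and 10.20 in mutants. Every mutant array was above every control array, by at least 0.85, and mutant replicate 1 stood highest. The mean went from 9.30 ± 0.08 to 10.44 ± 0.25 (SD, n = 3 each), a change of 1.14 with an SE of 0.13 and a 95% interval from 0.85 to 1.43 (limma, adjusted p = 8.702e-04).

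Txnrd2, the mitochondrial reductase, was the only one of the 9 genes called lower. Control arrays read 7.75, 7.79 and 7.85 and mutant arrays 7.08, 7.17 and 7.11, so the groups were separated by 0.58. The mean went from 7.80 ± 0.05 to 7.12 ± 0.05, so log2 signal fell by 0.68, with an SE of 0.07 and an interval of the change from -0.84 to -0.51 (limma, adjusted p = 7.016e-04).

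Txnrd3, a reductase with a fused glutaredoxin domain that is best known from testis, had the smallest of the 4 rises. It read 6.48, 6.31 and 6.34 in controls and 6.74, 6.79 and 6.69 in mutants, with 0.21 between the nearest arrays. Its change of 0.36 (SE 0.08, limma, adjusted p = 0.016) lost its call on leaving out control replicate 2 or 3 or mutant replicate 1 or 2 (adjusted p = 0.065, 0.059, 0.051 and 0.064). Without both control replicates that held Xist and Y-linked transcripts the change was 0.26 (adjusted p = 0.24), and the counts became 3 higher and 1 lower.

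Whether the reductases differed from one another was tested on the difference between their signals on the same array. Txnrd1 exceeded Txnrd2 by 1.46, 1.55 and 1.5 on the control arrays and by 3.62, 3.26 and 3.09 on the mutant arrays, a widening of 1.82. Txnrd1 minus Txnrd3 widened by 0.78, and Txnrd3 minus Txnrd2 went from a mean of -1.42 to -0.38, a shift of 1.04. For all 3 pairs the control and mutant arrays were fully separate, and the exact two-sided permutation test gave p = 0.1 (0.1 adjusted over the 3 pairs), the smallest that 3 arrays against 3 allow. For both pairs with Txnrd2 this outcome was fixed by the values above. Txnrd2 lay lower on every mutant array and the other reductases higher, so the test adds nothing there. Only Txnrd1 minus Txnrd3 could have come out otherwise. These tests compare shifts and not the levels of different genes, since probe sets differ in brightness.

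**Figure D2:**
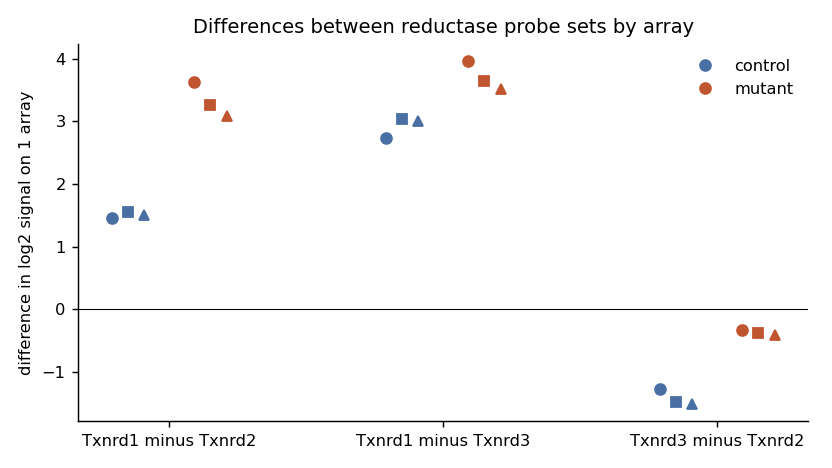
Difference in log2 signal between reductase probe sets on each array (vertical axis), for 3 control (blue) and 3 mutant (red) arrays, with symbols for replicates 1 to 3. Each difference lay higher on all mutant arrays, and Txnrd1 minus Txnrd2 moved farthest, by 1.82.

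Srxn1, sulfiredoxin, repairs over-oxidised peroxiredoxins at the expense of ATP. It read 9.97, 9.93 and 9.74 in controls and 11.21, 11 and 10.84 in mutants. No array of one group reached the other, and the gap was 0.87. The change of 1.14 (SE 0.11, interval 0.88 to 1.40, limma, adjusted p = 5.435e-04) was close in size to that of Txnrd1.

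Prdx1, the main cytosolic and nuclear peroxiredoxin, was represented by 2 probe sets. The brighter read 9.51, 9.80 and 9.86 in controls and 10.44, 10.36 and 10.29 in mutants, a change of 0.64 (SE 0.11, limma, adjusted p = 0.0053). The other read 9.24, 9.56 and 9.64 against 10.22, 10.18 and 10.01, a change of 0.66 (SE 0.12, adjusted p = 0.0078). Control replicate 1 was the lowest array in both, and neither probe set overlapped between groups. Which of them lies in the gene and which, if any, in a near-identical copy is unknown here.

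Prdx2, a second cytosolic peroxiredoxin that is abundant in red cells, was not called by either of its probe sets. The brighter read 10.06, 10.05 and 10.17 in controls and 10.03, 10.06 and 10.02 in mutants, with an interval of the change from -0.22 to 0.11. The dimmer had an interval from -0.31 to 0.08 (limma, adjusted p = 0.66 and 0.43). A change as large as that of Prdx1 lay outside both intervals. As for Prdx1, which probe set lies in the gene and which, if any, in a near-identical copy is unknown here. The erythroid markers, of which 4 of 10 were measured, gave 0 calls in limma and 0 at an unadjusted p under 0.05, and their summed linear signal ran from 246.5 to 267.4 in controls and from 219.8 to 432.3 in mutants. Without mutant replicate 1, limma called 1 erythroid marker higher.

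The mitochondrial partners of Txnrd2 did not pass the test. Txn2, the mitochondrial thioredoxin, read 9.07, 9.18 and 9.12 in controls and 9.0, 9.07 and 8.98 in mutants, and the groups touched at 9.07 (change -0.11, interval -0.27 to 0.06, limma, adjusted p = 0.38). Prdx3, the mitochondrial peroxiredoxin, read 8.71, 8.87 and 8.84 against 8.81, 8.62 and 8.50 (change -0.16, interval -0.39 to 0.06, adjusted p = 0.32). Mutant replicate 1 lay within the control range for Prdx3, and the other mutant arrays lay below it. All 3 mitochondrial genes had estimates below 0, from -0.68 to -0.11, with 1 called, while 3 of the 4 cytosolic genes were called higher.

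Prdx4, the peroxiredoxin of the endoplasmic reticulum, lies on the X chromosome. Its arrays read 6.48, 6.84 and 6.61 in controls and 6.67, 6.82 and 6.82 in mutants, and the groups overlapped (change 0.13, interval -0.12 to 0.37, limma, adjusted p = 0.49).

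**Figure D3:**
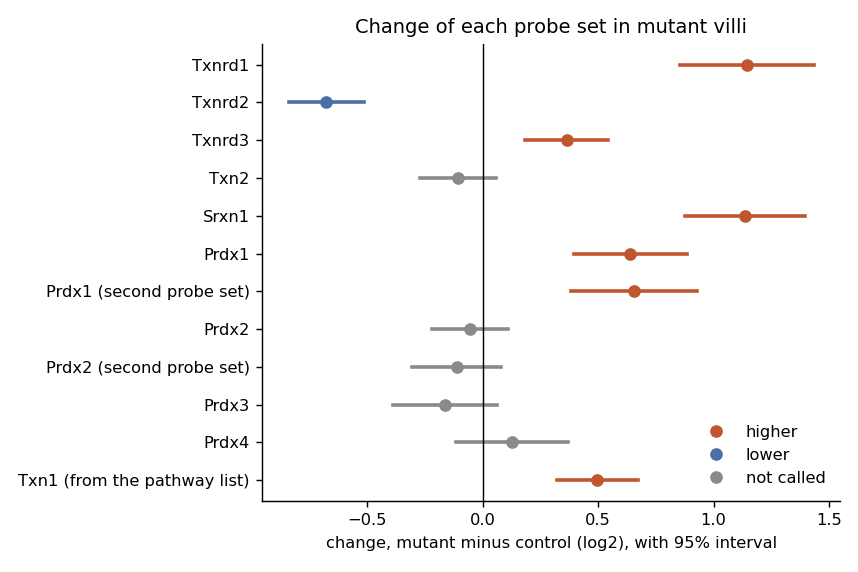
Change in log2 signal, mutant minus control (horizontal axis), of the 11 probe sets of the 9 genes and of Txn1, with 95% intervals from limma over 3 arrays a group; red was called higher, blue lower and grey not called. Txnrd1 (1.14) and Srxn1 (1.14) lie farthest to the right, Txnrd2 (-0.68) lies farthest to the left as the only gene called lower, and both probe sets of Prdx1 lie together.

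The stretches just before the annotated starts were searched in RefSeq (GRCm38.p6), 250 bases each, since several of these genes are known NRF2 targets and 3 of them rose by over 1.5-fold together. The motifs were TGACNNNGC, the core of the antioxidant response element that NRF2 binds, and TGANTCA, the related AP-1 type element, on either strand. All 10 genes had a window, 12 in total. TGACNNNGC was present for 2 genes and TGANTCA for 2, where 11.5% and 7.82% of 27025 genes held them, and 7 genes held neither. The windows with a match are shown 5′ to 3′ on the strand of the gene, with matches in capitals, because they belong to the 3 genes that rose most.
Srxn1, chr2:152105274-152105523 (+): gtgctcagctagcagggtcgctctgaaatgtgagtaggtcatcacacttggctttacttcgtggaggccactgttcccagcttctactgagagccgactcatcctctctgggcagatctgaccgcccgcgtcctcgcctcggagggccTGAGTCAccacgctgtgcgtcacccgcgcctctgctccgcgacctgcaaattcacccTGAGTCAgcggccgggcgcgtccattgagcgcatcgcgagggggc
Prdx1, chr4:116685349-116685598 (+): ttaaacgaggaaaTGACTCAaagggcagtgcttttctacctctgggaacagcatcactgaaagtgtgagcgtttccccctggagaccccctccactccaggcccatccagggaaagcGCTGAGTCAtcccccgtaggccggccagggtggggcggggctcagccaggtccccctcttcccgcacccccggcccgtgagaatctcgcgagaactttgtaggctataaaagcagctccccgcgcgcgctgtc
Txnrd1, chr10:82858956-82859205 (+): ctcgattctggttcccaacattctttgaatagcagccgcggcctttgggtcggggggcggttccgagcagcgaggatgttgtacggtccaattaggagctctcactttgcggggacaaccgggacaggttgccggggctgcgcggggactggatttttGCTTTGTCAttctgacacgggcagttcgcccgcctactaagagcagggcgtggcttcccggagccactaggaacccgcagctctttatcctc

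Srxn1 held TGAGTCA 102 and 45 bases before its start. Prdx1 held TGACTCA at 237, and at 133 a match to TGACNNNGC on the reverse strand that overlaps TGAGTCA at 131. Txnrd1 has 3 annotated starts, and only the second carried a match, GCTTTGTCA, at 92 bases on the reverse strand. No match was found before Txnrd2, Txnrd3, Txn2, Prdx2, Prdx3, Prdx4 or Prdx5, which says only that these letters are not in those windows.

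**Figure D4:**
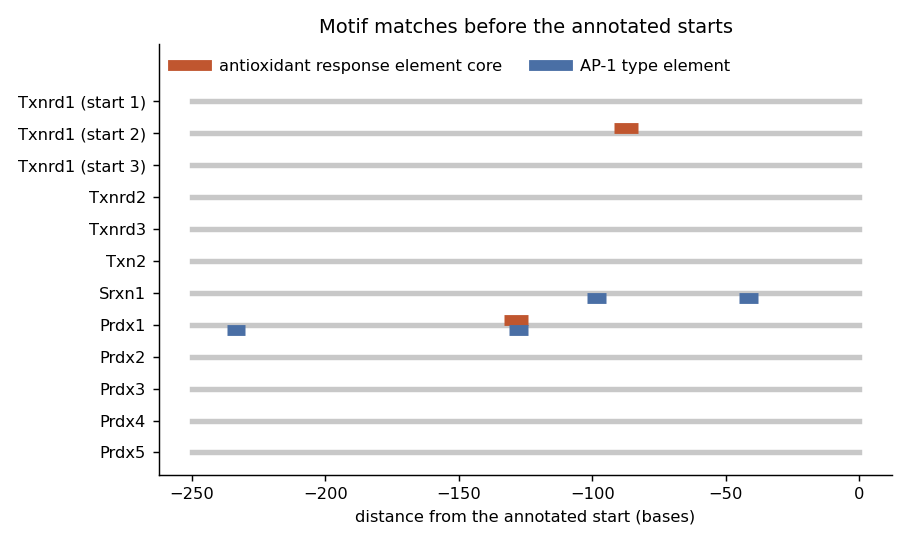
Position of motif matches (horizontal axis, bases from the annotated start) in the 12 windows of 250 bases before the starts of the 10 genes; red bars are the antioxidant response element core and blue bars the AP-1 type element. Matches lie before Srxn1, Prdx1 and the second start of Txnrd1.

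Among the thioredoxins, the main cytosolic one rose and most others did not pass the test. Txn1, the substrate of Txnrd1, read 12.40, 12.50 and 12.53 in controls and 13.01, 13.01 and 12.90 in mutants, a change of 0.50 (SE 0.08, limma, adjusted p = 0.0038). Of 11 thioredoxins and regulators, 2 were higher, Txn1 and the thioredoxin-like Txnl1 (0.40, adjusted p = 0.012), and 1 was lower, Txnl4b, which fell by 0.32 (adjusted p = 0.045). Txnip, which binds and inhibits thioredoxin, had a change of 0.11 (adjusted p = 0.68), and Txndc17 one of -0.21 (adjusted p = 0.079). The median of the 11 was 0.03. The call of Txnl4b was lost without any 1 array other than mutant replicate 1, and that of Txnl1 without control replicates 2 and 3 together.

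Among the peroxiredoxin-related sestrins, which damp growth signalling under stress, Sesn2 fell by 0.70 (limma, adjusted p = 7.918e-04) and Sesn3 by 0.39 (adjusted p = 0.014), while Sesn1 had a change of -0.01. Prdx6 and Prdx6b, listed with the sestrins, had no probe set carrying their symbol alone and have no value here. Of a list of 11 genes linked to thioredoxin, which joined enzymes it reduces with the sulphate-activating Papss genes and a kinase it binds, 3 were higher and 1 lower. They were Rrm2 (1.21) and Rrm1 (0.57), the subunits of ribonucleotide reductase that supplies DNA synthesis, Papss2 (0.83), which activates sulphate, and the stress kinase gene Map3k5, which fell by 0.64. Papss2, Map3k5 and Sesn3 lost their calls without control replicates 2 and 3. Proliferation markers were higher in the same samples, 8 of 9 measured with a median change of 0.88, and their part in the ribonucleotide reductase values was not tested. That count was 5 without control replicate 2 or mutant replicate 1, and 4 without mutant replicate 2 or 3. Mki67, called higher here (0.92), lost its call without control replicate 2 or any 1 mutant array. The paper reported Mki67 as unchanged in villi at P5, both by qPCR and in its transcriptome data.

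Genes that supply NADPH, the electron source of the reductases, gave 7 higher and 2 lower of 19 measured, with a median of 0.08. G6pdx was listed too but had no probe set carrying its symbol alone. The largest rises were Idh1 (1.49), the cytosolic isocitrate dehydrogenase, and the pentose phosphate pathway genes Tkt (1.43), Pgd (1.21) and Taldo1 (0.87). Idh2 and Nnt, which make NADPH in mitochondria and were picked out after their values were seen, fell by 0.37 and 0.35 (limma, adjusted p = 0.020 and 0.036). Of the other mitochondrial members of the list, Me3, a malic enzyme, was higher by 0.44 (adjusted p = 0.034), and Me2, Mthfd2, Mthfd2l, Aldh1l2 and Nadk2 were not called. Me3 lost its call without any 1 array other than control replicate 3 and after quantile normalization or median centring. Both lower calls were lost on leaving out control replicate 2 or 3 or mutant replicate 1 or 2. That of Nnt was also lost without control replicate 1 and with the replicate block. Without control replicates 2 and 3 together, limma called 6 genes higher and 0 lower, with 2 lower at an unadjusted p under 0.05.

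NRF2 regulators and targets outside the thioredoxin system gave 11 higher and 0 lower of 20 in limma, the latter also at an unadjusted p under 0.05, with a median change of 0.71. Gclc, the catalytic subunit that starts glutathione synthesis, rose by 3.32, Nqo1, a quinone reductase, by 2.66, the cystine importer gene Slc7a11 by 2.46 and Ptgr1, which reduces reactive lipid products, by 2.36. Slc7a11 was uneven, at 8.25, 6.35 and 6.49 on mutant arrays against 4.23 to 4.76 in controls. Gsr, the glutathione counterpart of the thioredoxin reductases, rose by 1.68 (limma, adjusted p = 3.536e-05). Nfe2l2, which encodes NRF2, and Keap1, its repressor, had changes of -0.02 and 0.03 (adjusted p = 0.89 and 0.86). These last 3 genes were picked out after their values were seen, as was Hmox1, which was not called (2.61, limma, adjusted p = 0.065). Hmox1 was uneven, at 12.91, 12.21 and 9.22 on mutant arrays against 8.73 to 8.97 in controls. Gclm, Ftl1 and Fth1 were also among the 9 genes not called. Without control replicates 2 and 3, 4 of the 20 genes were called higher, and 11 were higher at an unadjusted p under 0.05.

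Because reductases are selenoproteins, other selenoproteins and the machinery that inserts selenocysteine were read beside them. Of 21 other selenoproteins, 2 were higher and 5 lower, with a median of -0.05. Gpx2, the epithelial glutathione peroxidase, rose by 3.11 (7.94 to 11.05, limma, adjusted p = 9.794e-05), and Dio1 and Dio3, which remove iodine from thyroid hormone, fell by 1.40 and 0.63. Sephs2, which makes the selenium donor and is itself a selenoprotein, fell by 0.71 (adjusted p = 0.0042). The number lower was 3 without control replicate 2 or 3 or mutant replicate 2, and without control replicates 2 and 3 together 1 was higher and 1 lower.

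Of 11 genes for selenocysteine synthesis and insertion, 3 were lower and 1 higher, with a median of -0.22. Beside Sephs2, Sepsecs, which makes selenocysteine on its transfer RNA, fell by 0.60 (limma, adjusted p = 0.0024) and Eefsec, the dedicated elongation factor, fell by 0.39. The selenoprotein P receptor gene Lrp8 rose by 1.45. Without mutant replicate 3, 5 were lower, and Eefsec lost its call without mutant replicate 1 or 2. Without control replicates 2 and 3, limma called 0 higher and 0 lower, with 1 higher and 4 lower at an unadjusted p under 0.05.

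In the endoplasmic reticulum, the compartment of Prdx4, 2 of 22 oxidoreductases were higher and 6 lower, with a median of -0.14. Tmx4, a membrane-bound thioredoxin-like protein, fell by 1.46 (limma, adjusted p = 9.933e-05), Ero1b, which feeds electrons to oxygen, by 0.72, Txndc16 by 0.71 and Txndc5 by 0.61. Ero1b lost its call without control replicate 1 or 2, and 1 of the higher calls was lost without any 1 array other than mutant replicate 3. Without control replicates 2 and 3 together, 0 were called higher and 1 lower in limma, with 2 and 6 at an unadjusted p under 0.05. Goblet cell markers fell in the same samples, 7 of 8 measured with a median of -1.76 and a summed linear signal of 23580 to 25850 in controls and 3967 to 4759 in mutants, and their part in these values was not tested. Clca1 fell by 3.46, Tff3 by 2.78, Muc2 by 2.69 and Spink4 by 1.97. The paper's qPCR on whole duodenum, a different sample from these villi, found Muc2 not altered.

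Mitochondrial superoxide and thiol defence gave 2 higher and 3 lower of 12 measured, with a median of -0.03. Prodh, proline dehydrogenase, rose by 0.76 and the chaperonin gene Hspd1 by 0.42. Glrx5, a mitochondrial glutaredoxin, fell by 0.55 and Mpv17, an inner membrane protein, by 0.43. Glrx2, the other glutaredoxin of this list, had a change of -0.06 (limma, adjusted p = 0.61). On leaving out control replicate 2 or 3 or mutant replicate 1 or 2, the limma count of lower genes was 0, with 3 at an unadjusted p under 0.05. Leaving out the same arrays one at a time also ended the calls of Sesn3 and Map3k5. Without control replicates 2 and 3 together, 1 gene was higher and 0 lower in limma, the latter also at an unadjusted p under 0.05. Hspd1 lost its call without any 1 array other than control replicate 3. Glrx5 was also the only 1 of 4 glutaredoxins called.

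**Figure D5:**
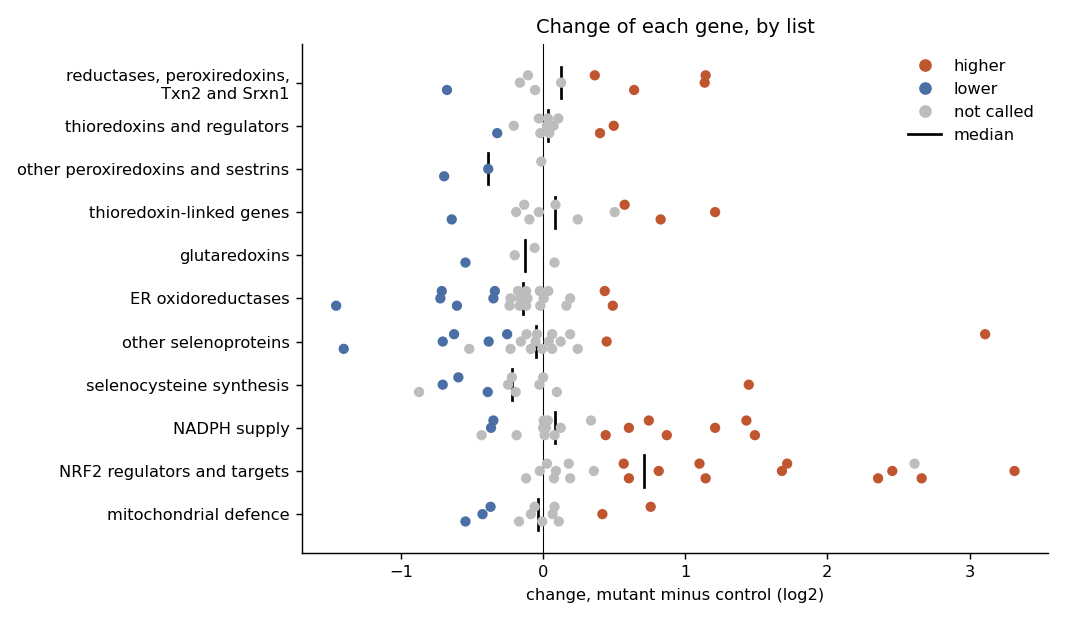
Change in log2 signal, mutant minus control (horizontal axis), of each measured gene in the set and in 10 lists of related genes, with red for called higher, blue for called lower, grey for not called and a bar at each median. NRF2 regulators and targets have the median farthest from 0 (0.71), and Gpx2 (3.11) stands apart among the selenoproteins.

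Genes whose log2 signal followed that of Txnrd1 most closely over the 6 arrays were Tpm3, Angptl4, Tinagl1, Pgd and Ms4a4a, with Pearson r from 0.9984 to 0.9995. For Txnrd2 they were Slamf9, Yif1a, Elapor1, Egfl6 and Zfp239, with r from 0.9973 to 0.999. The arrays form separate groups of 3, so a shared difference between genotypes gives a high r, and 805 and 902 genes exceeded 0.95. Of the genes nearest to Txnrd1, Angptl4, an inhibitor of lipoprotein lipase, changed by 2.04 and Pgd by 1.21.

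Other cell types were read through fixed marker lists. Epithelial markers gave 6 higher and 2 lower of 12, with a summed linear signal of 63170 to 63860 in controls and 70950 to 73380 in mutants. Leukocyte markers gave 3 higher and 1 lower of 12 (2119 to 2461 against 2632 to 4608), led by S100a9 (3.46) and S100a8 (3.31). With control replicates 2 and 3 left out, limma called 0 leukocyte markers higher and 0 lower, with 3 and 1 at an unadjusted p under 0.05, and with a trended, robust prior it called 1 higher and 1 lower, S100a8 losing its call under both settings. Stromal markers gave 1 higher of 10, Paneth cell markers 2 higher and 2 lower of 6, enteroendocrine markers 2 higher and 1 lower of 7, and tuft cell markers 1 higher of 6. The epithelial count of 6 was 3 without control replicate 2 or mutant replicate 1. Without mutant replicate 2 the higher calls were 1 for Paneth cell markers and 0 in limma for enteroendocrine, tuft and stromal markers, the latter with 2, 1 and 1 at an unadjusted p under 0.05. The Paneth count was also 1 without control replicate 3 or mutant replicate 3 and with array weights, median centring or an offset on the linear scale. The enteroendocrine count was also 0 without mutant replicate 3, and 1 without mutant replicate 1 or any 1 control array. The tuft cell call, Alox5ap, was also lost without any 1 control array and with the trended, robust prior or the offset. On leaving out control replicates 2 and 3, limma called 3 epithelial markers higher and 0 lower (5 and 1 at an unadjusted p under 0.05), 1 lower Paneth cell marker, 1 higher and 0 lower enteroendocrine markers (3 and 1 unadjusted) and 0 tuft cell markers in either direction, also unadjusted. The part of these cells in the reductase and peroxiredoxin values was not tested. Over all 30177 probe sets, 2427 were higher and 2661 lower. After each array was centred on its median they were 1996 and 3456, and the median change shifted from 0.00 to -0.05. In all, 5088 were called, and from 3249 to 4385 when any 1 array was left out, so calls were then fewer over the whole array too.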

How the data were processed

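Villus RNA of 3 control and 3 mutant replicates was measured on Affymetrix whole-transcript arrays. The authors deposited 1 log2 signal for every probe set on every array. The background correction, summarisation and normalization behind these values were not given in the sources used here. Array medians ran from 6.24 to 6.30. Of 30177 probe sets, 21789 carried 1 gene symbol, 1621 several and 6767 none, and 21698 symbols were found or updated through Entrez IDs.

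Mutant and control were compared with limma 3.58.1 (lmFit, eBayes, R 4.3.3) and Benjamini-Hochberg adjustment over all probe sets, with a threshold of 0.05. The method was tested on simulated data. Tables and figures used pandas 2.3.3, scipy 1.17.1 and matplotlib 3.10.9. The genes named by rule were the 10 of the set and up to 4 called genes with the largest change from each of 19 lists (216 genes). The rule also covered any listed thioredoxin or sestrin, Trpm7, Xist, Y-linked transcripts, and the genes most like Txnrd1 and Txnrd2. Other list genes named here, such as Gclm, Glrx2 and Me3, fell outside this rule. The set and the lists were chosen with earlier results of these data known. Alternatives varied the prior, array weights, replicate block, normalization, centring, filter, offset and samples. Promoter windows came from RefSeq (GRCm38.p6).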

Additional observations from a re-analysis of the deposited data

How the results depend on the processing

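Under 16 alternatives to the fit, Txnrd1 (1.02 to 1.27), Srxn1 (1.04 to 1.23), Prdx1 (0.53 to 0.85) and Txnrd2 (-0.73 to -0.57) kept their direction and their call, and Txn2, Prdx2, Prdx3 and Prdx4 stayed uncalled. Requiring at least 2-fold as well left 2 genes higher and 0 lower. Txnrd3 also lost its call when control replicates 2 and 3 were averaged as 1 sample (0.34, adjusted p = 0.056). Leaving out control replicates 2 and 3 together was chosen after seeing the data. The differences between reductases kept their direction, though without 1 array the smallest possible p is 0.2.

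Deviations of same-numbered control and mutant replicates correlated at 0.17, 0.04 and 0.12, and those of unlike-numbered ones at -0.16 to 0.09. These values do not settle whether replicate numbers pair the samples. With the replicate block, 4 genes were higher and 1 lower, and 4957 probe sets were called against 5088 without it.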
